A study of Homo sapiens with 6 samples.

Results

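The transcripts of 10 integrin subunits were compared between irradiated and untreated cultures of MDA-MB-231, an established line of human breast cancer cells that lack hormone receptors. The 10 genes were the 5 alpha subunit genes ITGA2, ITGA3, ITGA5, ITGA6 and ITGAV and the 5 beta subunit genes ITGB1, ITGB3, ITGB4, ITGB5 and ITGB8. The members were chosen by symbol, and each symbol had 1 row among the 61280 gene rows of the deposited table. The study compared 3 libraries of cells cultured for 24 h after 20 Gy of X-rays with 3 libraries of untreated cells of the same line. How long the controls were cultured, and whether numbered replicates came from separate cultures, is not in the labels. The p-values therefore reflect the spread among these 6 samples alone, and that spread may be technical. Values are TPM, a share of a library's transcripts corrected for length, and the read depth behind them is unknown. In bulk RNA, fewer cells that express a gene and less of its RNA per cell cannot be told apart.

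Integrins are cell surface receptors made of an alpha and a beta subunit, which together bind extracellular matrix outside the cell and the actin or keratin cytoskeleton inside it. The beta-1 subunit pairs with many alpha subunits to bind collagen, laminin or fibronectin, while alpha-v pairs with several beta subunits to bind ligands that carry the RGD peptide, among them vitronectin and latent TGF-beta. Alpha-6 with beta-4 anchors cells to laminin in hemidesmosomes. In breast cancer cells integrins are studied for adhesion, invasion and growth in bone.

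The libraries carried the markers of the line, with all 8 markers of MDA-MB-231 cells (VIM, CD44, AXL, KRT7, KRT8, KRT18, LGALS1, CAV1) at 1 TPM or more in every library. Their levels were not all alike between the groups. VIM (means of 1967 TPM in the controls and 1589 TPM after irradiation), AXL (187 and 146 TPM) and CAV1 (198 and 142 TPM) were lower without overlap. KRT7 (311 and 370 TPM) and KRT8 (427 and 460 TPM) were higher without overlap, and CD44, KRT18 and LGALS1 overlapped. Of 6 markers of luminal breast epithelium, ESR1, PGR and CDH1 stayed under 1 TPM in all 6 libraries. KRT19 (means of 158 TPM in the controls and 165 TPM after irradiation), EPCAM (10.3 and 8.45 TPM) and GATA3 (4.16 and 4.23 TPM) were above 1 TPM in each. Of the leukocyte, fibroblast and endothelial markers, 1 of 6, 2 of 6 and 0 of 4 reached 1 TPM in every library. The summed leukocyte markers were 3.33 to 4.23 TPM in the controls and 4.61 to 44.9 TPM after irradiation, with PTPRC at 40.4 TPM in irradiated replicate 1 and at most 0.45 TPM in the other libraries. The summed fibroblast markers were 6.35 to 7.61 TPM in the controls and 10.2 to 11.3 TPM after irradiation, and their part in the integrin values was not tested.

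In the RefSeq promoter table used here (build GRCh38.p14), 7 of the 10 members were matched, and ITGA3, ITGB3 and ITGB4 were not. The 250 bases before the most upstream listed start are shown for ITGB1, the most abundant member, and for ITGAV, the alpha partner of ITGB3. Capitals mark GGGCGG on either strand, a motif known to be bound by SP1.
ITGB1 (chr10:32958231-32958480, minus strand): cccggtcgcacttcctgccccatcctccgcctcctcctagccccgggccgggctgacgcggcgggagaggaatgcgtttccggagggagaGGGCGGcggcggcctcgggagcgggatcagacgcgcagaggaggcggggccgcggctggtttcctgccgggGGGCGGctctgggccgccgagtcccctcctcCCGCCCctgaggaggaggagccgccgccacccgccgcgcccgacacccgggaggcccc
ITGAV (chr2:186589806-186590055, plus strand): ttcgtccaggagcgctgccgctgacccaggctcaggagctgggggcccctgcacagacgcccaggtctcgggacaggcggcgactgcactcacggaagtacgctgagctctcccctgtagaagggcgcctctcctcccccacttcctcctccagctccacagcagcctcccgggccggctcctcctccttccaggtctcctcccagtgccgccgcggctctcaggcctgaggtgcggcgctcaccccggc
The ITGB1 window held 3 such motifs and 32 CpG dinucleotides, and the ITGAV window held 0 and 18. Of the 12 windows of the 7 matched members, 7 held GGGCGG (58.3%), against 42.6% of all 35116 windows of this length. TGANTCA, the AP-1 motif, was in none of the members' windows and in 6.57% of all windows. Which start these cells use was not measured, and a motif match is not a binding site.

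ITGB3 transcripts were higher after irradiation, and ITGB3 was the only member of the 10 that passed the test. The 8 other tested members did not pass, although ITGA3 and ITGB1 were lower in all 3 irradiated libraries than in any control. In all, 9 members entered the test, and ITGB8 was under the filter of 1 TPM in at least 3 libraries. Of the 9 tested members 1 was called (11.1%), against 10.6% of the 14621 genes tested (limma on log2(TPM + 1), Benjamini-Hochberg adjusted p under 0.05), so the share was near the background. The 1 call was a rise, against 6.53% of tested genes called higher, and limma called 0 members lower, with 2 at an unadjusted p under 0.05, against 4.07% of tested genes called lower. Groups did not overlap for 3 of 9 members (33.3%), against 34.9% of all tested genes. Of these 3, 1 was higher and 2 were lower after irradiation, against 20.4% and 14.5% of all tested genes. The median log2 change of the 9 was -0.11, against 0.03 over all tested genes. Over all genes 955 were called higher and 595 lower, and these counts were 779 and 854 after median-ratio scaling.

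**Figure D1:**
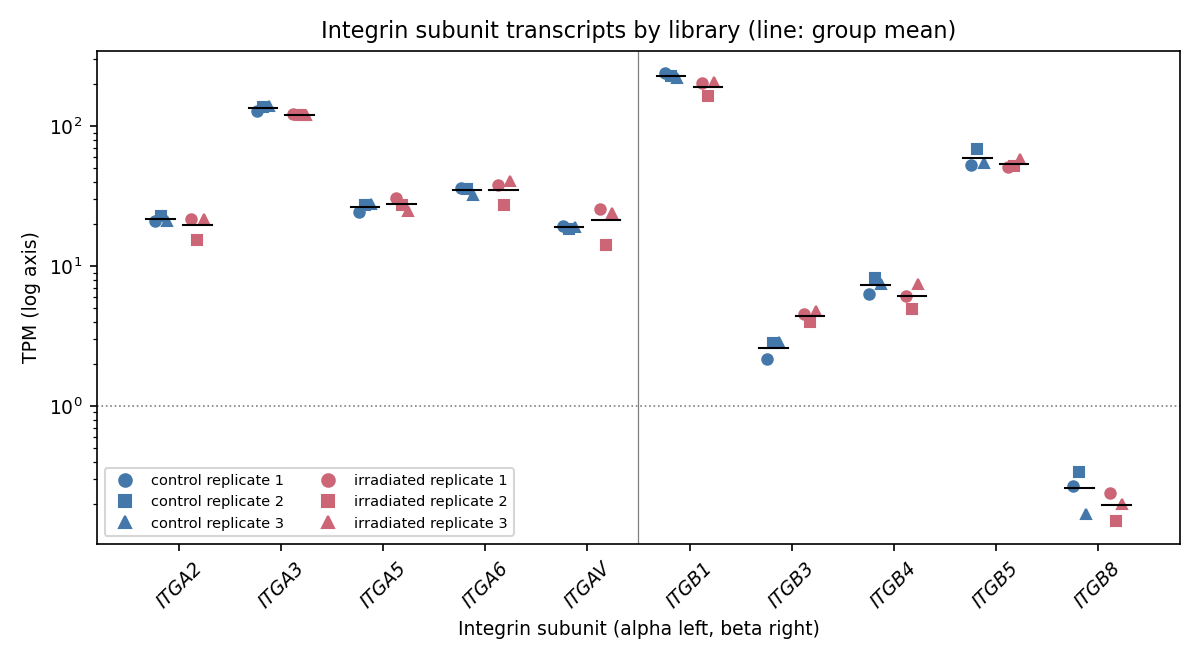
TPM of the 10 integrin subunits in each library on a log axis, with alpha subunits left and beta subunits right, controls in blue and irradiated libraries in red; black lines are group means and the dotted line is 1 TPM. ITGB1 and ITGA3 lie highest, ITGB3 is the member whose irradiated values (3.98 to 4.75 TPM) all lie above its controls, and ITGB8 lies under 1 TPM throughout.

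Transcript levels, which TPM allows to be compared between genes, spanned a wide range. In the controls the order was ITGB1, ITGA3, ITGB5, ITGA6, ITGA5, ITGA2, ITGAV, ITGB4, ITGB3 and ITGB8, and the ranges of neighbours in this order did not overlap. After irradiation ITGB1, ITGA3 and ITGB5 kept the top of the order, at means of 192, 121 and 54.1 TPM. ITGA6, ITGA5, ITGAV and ITGA2 followed with ranges that overlapped between neighbours, so the order of neighbours there does not exceed the spread across libraries. The lowest ITGA6 value (27.4 TPM) lay above the highest of ITGAV (25.6 TPM) and of ITGA2 (21.9 TPM). The lowest ITGA5 value (24.8 TPM) also lay above the highest of ITGA2.

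Among the beta subunits, ITGB3 encodes the beta-3 chain of the vitronectin receptor and of the platelet fibrinogen receptor (ENSG00000259207; chromosome 17, 47253846 to 47311816, plus strand, GRCh38, GENCODE 29). It stood at 2.17, 2.82 and 2.85 TPM in control replicates 1 to 3 and at 4.51, 3.98 and 4.75 TPM in irradiated replicates 1 to 3. All 3 irradiated values lay above all 3 controls. The mean rose from 2.61 ± 0.384 to 4.41 ± 0.394 TPM (SD, n = 3 per group), 1.69 times the control level. On the log2(TPM + 1) scale, which understates changes of genes this low, the change was 0.59 ± 0.13 (SE; 95% interval 0.28 to 0.90; limma adjusted p = 0.0351). Leaving out 1 library ended the call in 5 of 6 fits, namely for each control and for irradiated replicates 1 and 3, with an adjusted p of at most 0.108. It was also lost with no filter on low values (adjusted p = 0.115). The gene span of ENSG00000259753, a protein-coding gene on the same strand, shares 57920 bases with that of ITGB3, introns included. This gene was listed at a mean of 0.0233 TPM in the controls and at 0 after irradiation.

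ITGB1, the common beta-1 chain (ENSG00000150093; chromosome 10, 32900319 to 33005792, minus strand), stood at 239.6, 229 and 221 TPM in the controls and at 202, 166 and 207 TPM after irradiation. The irradiated libraries all lay below the controls, with replicate 2 lowest. The means were 229.8 ± 9.49 and 192 ± 22.8 TPM (SD, n = 3 each), with a log2 change of -0.27 ± 0.09 (SE; 95% interval -0.47 to -0.06) and a limma adjusted p of 0.0932. It passed after median-ratio scaling (log2 change -0.30, adjusted p = 0.0360), and without irradiated replicate 2 the change was -0.16 (adjusted p = 0.0778). ITGB1-DT, a non-coding gene annotated on the opposite strand, had means of 1.83 and 2.82 TPM. Its gene span shares 46948 bases with that of ITGB1, introns included. Whether counting used strand is not given in the sources used here.

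ITGB5, which encodes beta-5, another alpha-v partner (ENSG00000082781; chromosome 3, 124761948 to 124901418, minus strand), stood at 52.8, 68.9 and 54.9 TPM in the controls and at 51.4, 52.1 and 58.7 TPM after irradiation. The groups overlapped, and control replicate 2 was the highest library. The log2 change was -0.11 ± 0.11 (SE; 95% interval -0.36 to 0.13; limma adjusted p = 0.527). Without control replicate 2 it was 0.00, so the sign rests on that library.

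ITGB4 encodes beta-4, the hemidesmosome subunit with a long cytoplasmic tail (ENSG00000132470; chromosome 17, 75721328 to 75757818, plus strand), and stood at 6.32, 8.21 and 7.47 TPM in the controls against 6.10, 4.90 and 7.49 TPM after irradiation. The groups overlapped, with irradiated replicate 2 lowest. The log2 change was -0.23 ± 0.16 (SE; 95% interval -0.60 to 0.14; limma adjusted p = 0.393). GALK1, on the opposite strand, had means of 23.2 and 32.7 TPM. Its gene span shares 6225 bases with that of ITGB4, introns included. Without a known strand setting, reads of the shared part cannot be told apart. ITGB8, whose beta-8 chain binds latent TGF-beta with alpha-v (ENSG00000105855; chromosome 7, 20330702 to 20415754, plus strand), stood at 0.27, 0.34 and 0.17 TPM in the controls and at 0.24, 0.15 and 0.20 TPM after irradiation, too low for a test.

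Among the alpha subunits, ITGA3 encodes alpha-3 of a laminin receptor (ENSG00000005884; chromosome 17, 50055968 to 50090481, plus strand). It stood at 128, 137 and 140.0 TPM in the controls and at 122, 119 and 121 TPM after irradiation. The groups did not overlap, and the irradiated libraries lay close together. Means were 135 ± 6.45 and 121 ± 1.46 TPM (SD, n = 3 each), with a log2 change of -0.15 ± 0.05 (SE; 95% interval -0.26 to -0.04) and a limma adjusted p of 0.0796. It passed once library trends on GC content and length were removed (-0.21, adjusted p = 0.0358).

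ITGAV, the alpha-v chain (ENSG00000138448; chromosome 2, 186590065 to 186680901, plus strand), stood at 19.2, 18.5 and 19.1 TPM in the controls and at 25.6, 14.2 and 23.9 TPM after irradiation. The controls lay within a narrow range, while irradiated replicates 1 and 3 lay above it and replicate 2 below it. The coefficient of variation was 2.01% in the controls and 29.1% after irradiation. The log2 change was 0.11 ± 0.20 (SE; 95% interval -0.35 to 0.58; limma adjusted p = 0.750). Without irradiated replicate 2 the change was 0.37 ± 0.06 and passed (adjusted p = 0.0269), and without irradiated replicate 1 it was -0.04, so the value rests on single libraries.

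ITGA6, the laminin-binding alpha-6 chain (ENSG00000091409; chromosome 2, 172427354 to 172506282, plus strand), stood at 36.1, 35.6 and 32.5 TPM in the controls and at 37.9, 27.4 and 40.4 TPM after irradiation. Replicates 1 and 3 of the irradiated group lay above every control and replicate 2 below every control. The log2 change was 0.00 ± 0.14 (SE; 95% interval -0.32 to 0.33; limma adjusted p = 0.994), and it was 0.17 without irradiated replicate 2 (adjusted p = 0.154).

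ITGA2, the collagen-binding alpha-2 chain (ENSG00000164171; chromosome 5, 52989326 to 53094779, plus strand), stood at 21.0, 22.9 and 21.2 TPM in the controls and at 21.9, 15.5 and 21.6 TPM after irradiation. Only irradiated replicate 2 lay outside the control range. The log2 change was -0.15 ± 0.13 (SE; 95% interval -0.46 to 0.16; limma adjusted p = 0.495), and 0.00 without irradiated replicate 2. ITGA5, the alpha-5 chain of the fibronectin receptor (ENSG00000161638; chromosome 12, 54395261 to 54419460, minus strand), stood at 24.5, 27.3 and 27.6 TPM in the controls and at 30.9, 27.4 and 24.8 TPM after irradiation. Its groups overlapped, with a log2 change of 0.06 ± 0.09 (SE; 95% interval -0.16 to 0.28; limma adjusted p = 0.723).

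**Figure D2:**
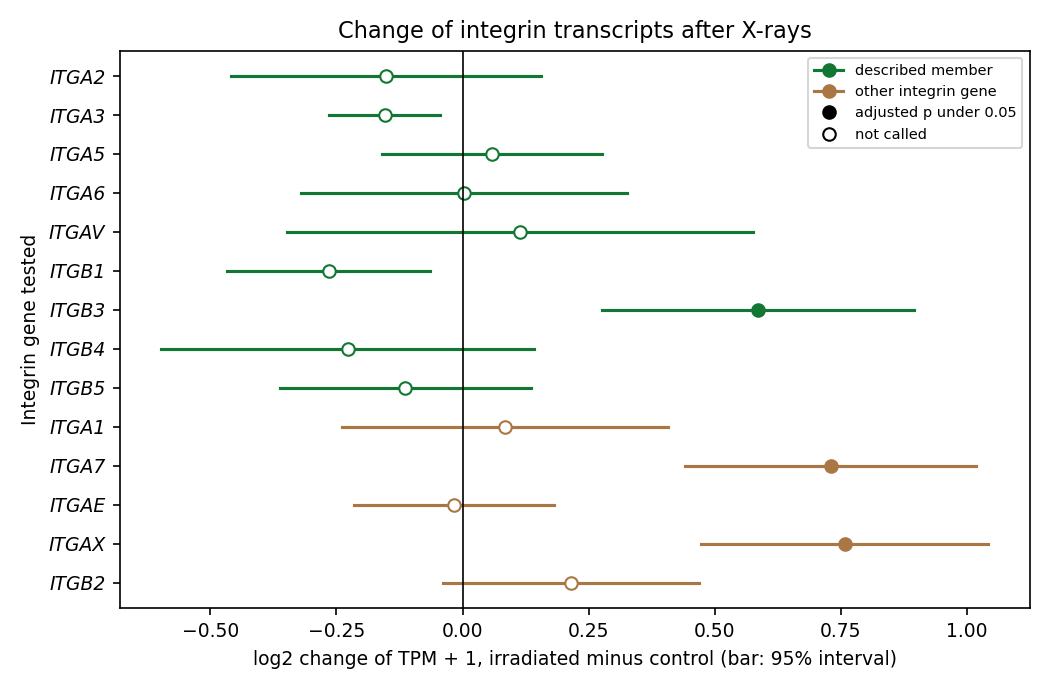
Change of each tested integrin gene after irradiation on the log2(TPM + 1) scale, with 95% intervals from limma; green marks the 9 tested members, brown the 5 other tested integrin genes, and filled points have an adjusted p under 0.05. ITGB3, ITGA7 and ITGAX are filled; ITGA3 and ITGB1 lie below 0 with intervals that exclude it but adjusted p of 0.0796 and 0.0932.

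Irradiated replicate 2 stood low for most members. It held the lowest of the 6 values for 7 of the 10 members, namely ITGA2, ITGA3, ITGA6, ITGAV, ITGB1, ITGB4 and ITGB8. Across all tested genes it held the lowest value for 33.5%, against 6.51% to 18.3% for the other libraries. Genes with a long transcript were low there. For the 3561 tested genes whose longest annotated transcript exceeds 5109 bases, the median deviation from the mean of the 6 libraries was -0.17 on the log2(TPM + 1) scale in irradiated replicate 2, against -0.01 for the other genes. In the other 5 libraries the median deviation of the long genes lay between -0.00 and 0.08. Of the tested members 5 belong to these long genes (ITGA2, ITGA3, ITGA6, ITGAV and ITGB4). In irradiated replicate 2 they deviated from their control means by -0.46, -0.17, -0.33, -0.39 and -0.49. The tested members with shorter transcripts deviated there by -0.47 (ITGB1), -0.16 (ITGB5), 0.05 (ITGA5) and 0.47 (ITGB3). The part of transcript length in the members' values was not tested. With library trends on GC content and length removed, the log2 change was 0.18 for ITGAV, 0.08 for ITGA6 and -0.05 for ITGA2, none of them called. ITGB3 was called both without irradiated replicate 2 (log2 change 0.65, adjusted p = 0.0410) and with these trends removed (0.61, adjusted p = 0.0246).

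**Figure D3:**
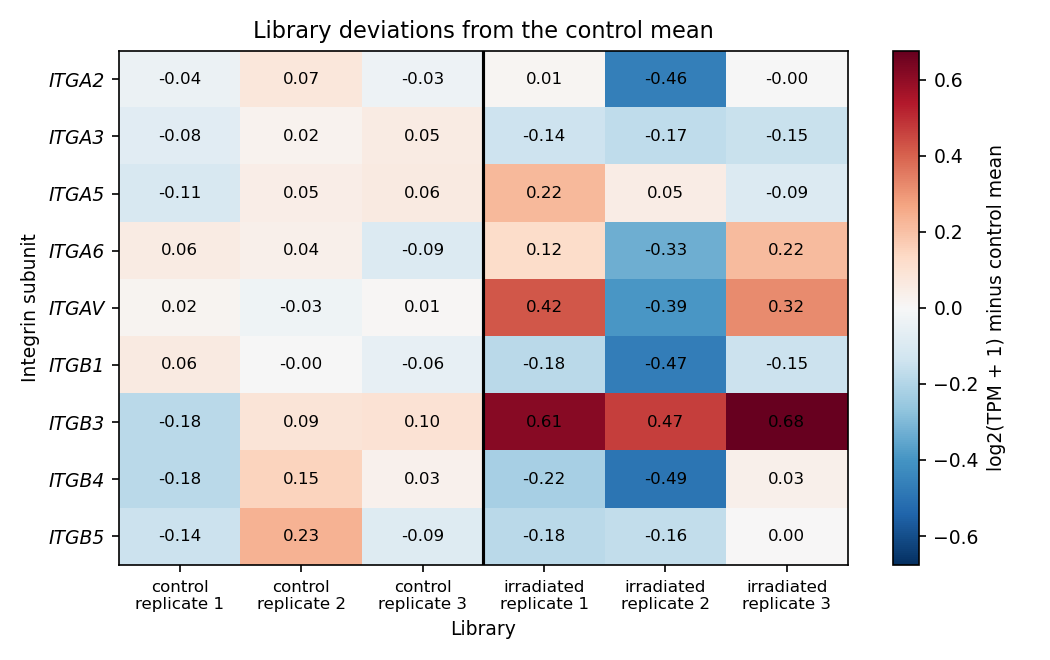
Each cell gives log2(TPM + 1) of a tested member in a library minus its control mean, red above and blue below. The column of irradiated replicate 2 is blue for ITGA2 (-0.46), ITGA6 (-0.33), ITGAV (-0.39), ITGB1 (-0.47) and ITGB4 (-0.49), where irradiated replicates 1 and 3 differ from it. That column is also blue for ITGA3 (-0.17) and ITGB5 (-0.16). The row of ITGB3 is red in all 3 irradiated libraries.

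The summed levels of the alpha and of the beta members were set side by side. Other integrin genes are left out of these sums. Among them is the alpha gene ITGAE, with means of 70.9 TPM in the controls and 70.2 TPM after irradiation. The ratio and shares given here therefore hold for the members alone, not for all alpha and beta subunits. The 5 alpha members summed to 228, 241 and 240.3 TPM in the controls and to 239, 204 and 232 TPM after irradiation, and these groups overlapped. The 5 beta members summed to 301, 309 and 286 TPM in the controls and to 265, 227 and 279 TPM after irradiation, all below the controls. The alpha to beta ratio was 0.759, 0.780 and 0.840 in the controls and 0.902, 0.899 and 0.833 after irradiation, with overlapping groups (means 0.793 ± 0.0423 and 0.878 ± 0.0390, SD, n = 3 each). ITGB1 made up 76.9% ± 2.76 of the beta sum in the controls and 74.7% ± 1.71 after irradiation, so the beta sum mainly carries ITGB1. ITGA3 made up 57.0% ± 1.20 and 54.0% ± 3.96 of the alpha sum. ITGB3 supplied 0.876% ± 0.141 of the beta sum in the controls and 1.72% ± 0.0288 after irradiation. Of 5 tested alpha members limma called 0, with 1 at an unadjusted p under 0.05, and their median log2 change was 0.00. Of 4 tested beta members it called 1, with 2 at an unadjusted p under 0.05, and their median was -0.17. Over all 14621 tested genes 10.6% were called and 4099 had an unadjusted p under 0.05, and with 4 or 5 tested genes a class, no difference between the classes can be read from these counts. Whether alpha and beta subunits changed unequally as classes was not tested.

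The ratio of an alpha to a beta transcript within a library does not depend on library scaling, and 9 known heterodimer pairs were compared by an exact two-sided permutation test over samples. With 3 libraries against 3 the smallest p is 0.1. No pair can therefore pass, and the adjusted p was between 0.386 and 0.5 for all 9. ITGAV/ITGB3, the vitronectin receptor pair, stood at 8.86, 6.56 and 6.69 in the controls and at 5.68, 3.56 and 5.02 after irradiation. The irradiated ratios lay below all controls, with a log2 difference of -0.65 ± 0.25 (SE, n = 3 each; exact permutation p = 0.1). ITGA6/ITGB1, a laminin receptor, stood at 0.151, 0.155 and 0.147 in the controls and at 0.187, 0.165 and 0.195 after irradiation. Its irradiated ratios lay above all controls, with a log2 difference of 0.27 ± 0.08 (SE, n = 3 each; exact permutation p = 0.1). Both ratios reuse the ITGB3 and ITGB1 values given above and are not separate results. With a library left out, the log2 difference of ITGAV/ITGB3 was -0.79 to -0.45. A ratio does not remove a trend on transcript length, and the part of length in these ratios was not tested. Groups overlapped for the other 7 pairs. Their log2 differences were 0.11 for ITGA2/ITGB1 and ITGA3/ITGB1, 0.33 for ITGA5/ITGB1, 0.38 for ITGAV/ITGB1, 0.23 for ITGAV/ITGB5, 0.49 for ITGAV/ITGB8 and 0.27 for ITGA6/ITGB4. ITGAV/ITGB8 rests on values under 1 TPM.

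**Figure D4:**
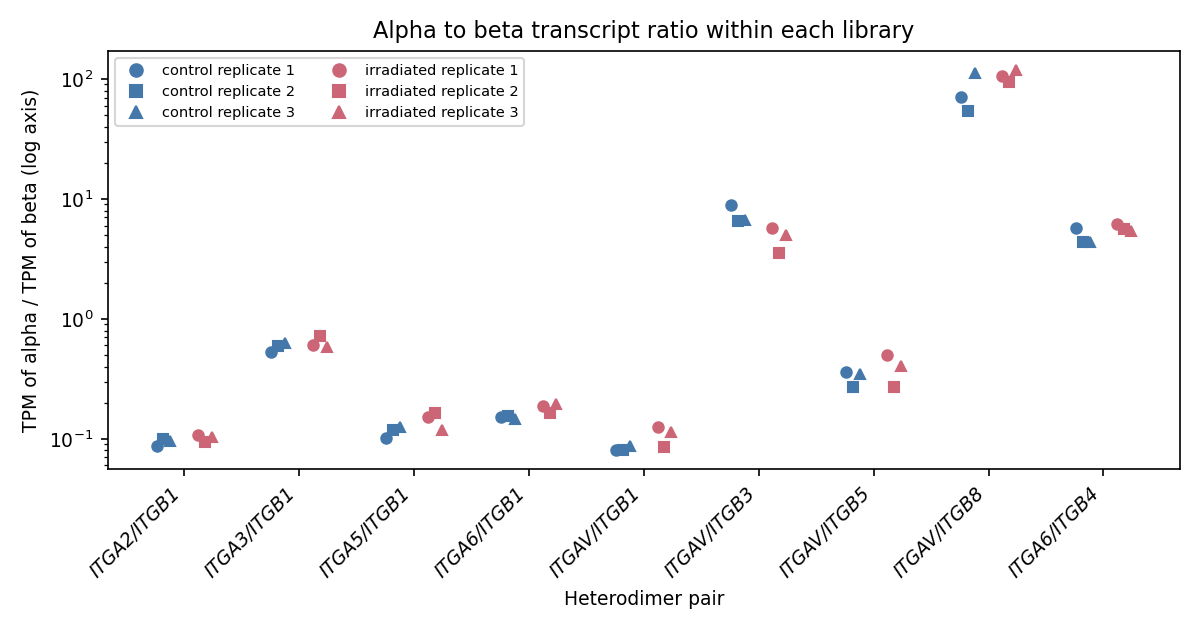
TPM of the alpha subunit divided by TPM of the beta subunit in each library for 9 heterodimer pairs, on a log axis, controls in blue and irradiated libraries in red. The irradiated points of ITGAV/ITGB3 (3.56 to 5.68) lie below its controls (6.56 to 8.86) and those of ITGA6/ITGB1 lie above its controls.

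Of the 16 other integrin genes of the human genome, 5 passed the filter, 2 of these rose and none fell (40.0% of 5, against 10.6% of all tested genes called and 6.53% called higher). This share is a description only, because the members, and so the remainder, were chosen with earlier results of these data known. The 2 that rose are ITGA7, a laminin receptor chain best known from muscle, and ITGAX, the leukocyte chain CD11c. ITGA7 stood at 2.10, 1.79 and 1.77 TPM in the controls and at 4.12, 3.51 and 3.73 TPM after irradiation (log2 change 0.73 ± 0.12 SE, limma adjusted p = 0.0164). ITGAX stood at 2.49, 2.21 and 2.03 TPM in the controls and at 4.08, 4.79 and 4.58 TPM after irradiation (log2 change 0.76 ± 0.12 SE, limma adjusted p = 0.0140). Neither gene's groups overlapped, and both are, like ITGB3, at a low level. The call of ITGA7 ended when control replicate 1, control replicate 2, irradiated replicate 1 or irradiated replicate 3 was left out, with adjusted p of at most 0.0700. For ITGAX this happened on leaving out control replicate 2 and on leaving out irradiated replicate 3 (at most 0.0634), and neither passed with no filter (adjusted p = 0.0664 and 0.0559). Of the 6 leukocyte markers, ITGB2 was above 1 TPM in every library and higher in each irradiated library than in any control, PTPRC was high in irradiated replicate 1, and ITGAL, CD3E, CD14 and LYZ were under 1 TPM in all 6. Their part in the ITGAX values was not tested.

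The other 3 tested integrin genes did not pass. ITGB2, the leukocyte beta-2 chain and partner of ITGAX, stood at 3.26, 2.99 and 3.22 TPM in the controls and at 3.93, 3.62 and 3.92 TPM after irradiation, without overlap (log2 change 0.21 ± 0.11 SE, limma adjusted p = 0.245). ITGB2-AS1, which overlaps ITGB2 on the opposite strand, had means of 0.737 TPM in the controls and 1.24 TPM after irradiation. A gene annotated within an ITGB2 intron on the same strand had means of 1.54 and 1.12 TPM. ITGAL, ITGAM and ITGAD, the alpha chains that also pair with ITGB2, were at most 0.43, 0.35 and 0.04 TPM. ITGAE, known as the alpha-E chain of lymphocytes in epithelia, had 70.9 ± 4.98 TPM in the controls and 70.2 ± 7.05 TPM after irradiation (SD, n = 3 each). HASPIN, which overlaps ITGAE on the opposite strand, had means of 19.3 and 17.4 TPM. ITGA1, a collagen-binding chain, had means of 3.95 and 4.26 TPM (log2 change 0.08 ± 0.14 SE, limma adjusted p = 0.734), and PELO overlaps it on the same strand at 14.6 and 15.0 TPM.

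The other genes of the integrin pathway were described in 5 further lists. These lists were chosen with earlier results of these data known, so their shares of called genes are descriptions only. Of 22 tested integrin ligands 5 rose and 1 fell (27.3%, against 10.6% of all tested genes), with a median log2 change of 0.11. TGFBI, a secreted matrix protein that binds integrins, rose from 58.3 ± 0.268 to 81.2 ± 5.09 TPM (log2 change 0.47 ± 0.06 SE, limma adjusted p = 0.00640). MFGE8, an RGD protein that bridges cells to alpha-v integrins, rose from 93.6 ± 2.86 to 129 ± 5.58 TPM (0.46 ± 0.05 SE, adjusted p = 0.00479). TGFB1, whose latent form binds alpha-v integrins, rose from 34.0 ± 1.36 to 45.8 ± 0.155 TPM (0.42 ± 0.05 SE, adjusted p = 0.00705). FN1, which encodes fibronectin, fell from 38.0 ± 1.73 to 29.3 ± 2.39 TPM (-0.37 ± 0.08 SE, adjusted p = 0.0269), a call lost under 9 of 15 alternatives, among them the GC and length correction (adjusted p at most 0.104). The remaining ligands called, named after their values were seen, were the laminin chain LAMB2 (log2 change 0.30, adjusted p = 0.00740) and CCN1 (0.17, adjusted p = 0.0377). CCN1 lost its call under 11 of 15 alternatives (adjusted p up to 0.197).

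Integrin tails are bound by talins and kindlins, which activate the receptor, and by inhibitors. Of 18 tested activators and tail-binding adaptors 1 rose and none fell (5.56%, against 10.6% of all tested genes). It was SHARPIN, an inhibitor that binds alpha tails, which rose from 46.2 ± 3.31 to 61.8 ± 1.36 TPM (log2 change 0.41 ± 0.06 SE, limma adjusted p = 0.0123). Its call was lost with the replicate block (adjusted p = 0.0502) and held under the other 14 alternatives. Talin and kindlin genes did not pass, with log2 changes of -0.01 for TLN1, 0.19 for TLN2, -0.29 for FERMT1, -0.06 for FERMT2 and -0.17 for FERMT3 (limma adjusted p from 0.0849 to 0.961). These 5 genes were named after their values were seen. FERMT3 stood at 2.16, 2.62 and 2.88 TPM in the controls and at 5.40, 1.34 and 1.09 TPM after irradiation. Its irradiated libraries thus lay on both sides of the control range.

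Of 23 tested focal adhesion genes 1 rose and 2 fell (13.0%, near the 10.6% of all tested genes). LPXN, a paxillin relative, rose from 13.8 ± 0.634 to 19.0 ± 0.430 TPM (log2 change 0.44 ± 0.07 SE, limma adjusted p = 0.0139). VASP, an actin polymerase (-0.33 ± 0.07 SE, adjusted p = 0.0243), and TES, a LIM protein of focal adhesions (-0.32 ± 0.07 SE, adjusted p = 0.0259), fell. VASP lost its call under 8 of 15 alternatives (adjusted p up to 0.0848), TES under 7 (up to 0.105) and LPXN under 4 (up to 0.0584).

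Of 15 hemidesmosome and tetraspanin partners 3 rose and 1 fell (26.7%, against 10.6% of all tested genes). COL17A1, a transmembrane collagen that joins alpha-6 beta-4 in hemidesmosomes, rose from 3.60 ± 0.577 to 7.12 ± 0.155 TPM (log2 change 0.83 ± 0.12 SE, limma adjusted p = 0.0115). PLEC and DST, hemidesmosome genes of the same list, did not pass (0.03 and -0.13, limma adjusted p = 0.822 and 0.403). Both were named after their values were seen. CAV1, the caveolin-1 gene, fell from 198 ± 8.97 to 142 ± 5.45 TPM (-0.48 ± 0.05 SE, adjusted p = 0.00466). The tetraspanin genes CD82 (0.36, adjusted p = 0.0465) and CD9 (0.16, adjusted p = 0.0340) rose, calls lost under 11 and 9 of 15 alternatives (adjusted p up to 0.147 and 0.131). Of 13 tested integrin trafficking genes 2 rose and none fell (15.4%, against 10.6% of all tested genes). These were CLIC3, which returns active integrin from late endosomes to the surface (means of 2.88 ± 0.305 and 5.99 ± 0.481 TPM, changed by 0.85 ± 0.12 SE on the log2 scale with limma adjusted p = 0.00924), and the adaptor GGA3 (0.38 ± 0.09 SE, adjusted p = 0.0402), whose call was lost under 8 of 15 alternatives (adjusted p up to 0.126).

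**Figure D5:**
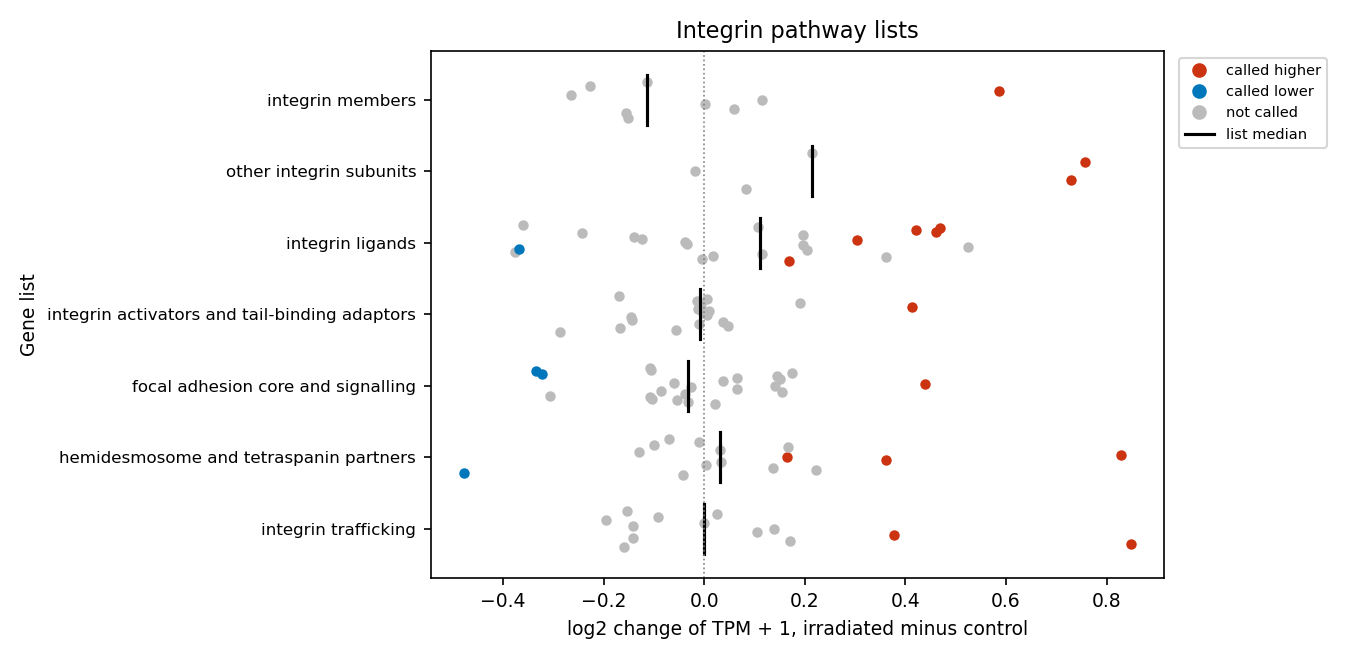
Log2 change of every tested gene in the integrin members and the 6 related lists, with red for genes called higher, blue for genes called lower, grey for genes not called and a black line at the list median. Calls are spread over all lists, with 5 ligands to the right and 1 to the left, and ITGB3 is the only coloured point among the members.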

How the data were processed

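RNA of 3 control and 3 irradiated samples was sequenced from TruSeq libraries, per the labels' protocols. The authors deposited a table of TPM values, and the submitters' processing notes name HISAT2, StringTie, RSEM and hg38, without versions, roles or order. TPM divides by transcript length and library total, so values are relative shares; read depth is unknown and precision rests on 3 libraries per group. Rows that reached 1 TPM in 3 or more of the 6 samples (14621) were compared as log2(TPM + 1) with limma 3.58.1 in R 4.3.3 (eBayes with a mean-variance trend, two-sided, Benjamini-Hochberg over all tested rows, threshold 0.05). Heterodimer ratios were compared by exact permutation in scipy 1.17.1. All groups came from sample titles. Positions and transcript lengths came from GENCODE 29 (GRCh38, the same assembly as hg38). The fit was tested on simulated data. Deviations of same-numbered samples had correlations of -0.06 to 0.03, so replicate numbers were not treated as pairs. Alternatives were each library left out, a replicate block, eBayes robust or without trend, quantile normalization or median-ratio scaling, another filter (none, or 5 TPM) or pseudocount (0.1), and a correction of each library for cubic trends on GC content and log2 mean transcript length (97.4% of tested rows).

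Named were all members, the other integrin genes that passed the filter, and in each list up to 4 called genes with the largest changes; exceptions are marked. The members and lists were chosen with earlier results of these data known.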

Additional observations from a re-analysis of the deposited data

How the results depend on the processing

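ITGB3 was the called member in the reported fit, and 1 member was called higher in 6 of the alternatives that keep all libraries. The count was 0 with no filter and with the replicate block, and also with a filter of 5 TPM, which removes ITGB3. It lay between 0 and 2 when each library was left out. No member was called lower by limma in the reported fit, with 2 at an unadjusted p under 0.05; it was 1 after the GC and length correction (ITGA3) and 1 after median-ratio scaling (ITGB1), and 0 in each fit with a library left out. Genes called across the table fell from 1550 to 993 for eBayes without trend, 497 with no filter and 362 with the replicate block, and were 306 to 1390 with a library left out. Called genes in the 6 related lists fell from 18 to 9 with no filter and 7 with the replicate block, and were 8 to 19 with a library left out. With the block, the adjusted p of ITGB3 was 0.0896. Fits with a library left out have fewer samples, and the block leaves fewer residual degrees of freedom. No filter means more genes tested. What caused any of these changes was not tested. No replicate pairing was found. Among integrin genes signs turned for ITGA1, ITGA2, ITGA5, ITGA6, ITGAE, ITGAV and ITGB5, none of them called in the reported fit. ITGA6 was -0.028 after median-ratio scaling and ITGA1 -0.022 after quantile normalization. With a library left out, the log2 change was -0.23 to 0.0041 for ITGA2, -0.020 to 0.13 for ITGA5, -0.10 to 0.17 for ITGA6, -0.038 to 0.37 for ITGAV, -0.19 to 0.0033 for ITGB5, -0.013 to 0.17 for ITGA1 and -0.082 to 0.061 for ITGAE. The log2 alpha to beta ratio of the members' summed TPM was higher by 0.15 after irradiation, and by 0.12 to 0.19 with a library left out.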
